A study of Homo sapiens with 6 samples.

Results

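DUSP1, DUSP4, DUSP5, DUSP6, SPRY2, SPRY4, SPRED1, SPRED2, SOCS2 and CISH encode inhibitors that are switched on by the kinase and STAT pathways they restrain. These 10 genes were chosen by name, with earlier results of these data known. They were found by matching the identifiers of the counted transcripts to GENCODE gene symbols, and are 10 of the 37192 genes whose transcripts could be matched. Nascent transcription was measured by PRO-seq, which maps engaged RNA polymerase, in 2 libraries of K562 cells, and steady-state RNA was measured by rRNA-depleted total RNA-seq in 4 libraries. K562 is an established human chronic myelogenous leukemia line that carries the BCR-ABL1 kinase fusion. All libraries came from untreated cells of 1 flask in serum-containing RPMI medium, so the p-values below measure the spread between libraries, which may be technical. The comparison the design allows is between the assays, gene by gene, which bears on how much RNA accumulates for a given amount of transcription.

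The mitogen pathway runs from receptor tyrosine kinases or BCR-ABL1 through RAS, RAF and MEK to the kinase ERK, and cytokine receptors and BCR-ABL1 also act on the transcription factor STAT5. Both pathways are limited by proteins whose genes they induce. DUSP1, DUSP4 and DUSP5 are MAP kinase phosphatases of the nucleus and DUSP6 is a cytoplasmic phosphatase selective for ERK. Sprouty proteins (SPRY2, SPRY4) and the related SPRED1 and SPRED2 act upstream, on RAS and RAF activation, and SPRED1 does so by recruiting neurofibromin. CISH and SOCS2 belong to the SOCS family of SH2-domain proteins, bind activated cytokine receptors and are known targets of STAT5. Messenger RNAs of induced inhibitors of this kind are often described as short-lived, and AU-rich elements in the 3′UTR, with the pentamer AUUUA, are a known signal for rapid decay.

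Relative half-life was defined, as in the study, as the RNA-seq level over the PRO-seq level of a transcription unit (TU), both in TPM, a count scaled by the length of the TU and the size of the library. It has no unit and is given here as a log2 difference from the median mRNA. A value of -1 therefore stands for 2 times less RNA per nascent transcript than the median mRNA.

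The sites printed first are the AU-rich nonamers found in these mRNAs, since they are the sequence feature of the list with a known link to decay. Capitals mark the DNA letters ATTTATTTA, and 10 bases are shown on each side, read from the GRCh37 sequence of the counted transcripts.
DUSP1, 3′UTR bases 103 to 111: gctggtccttATTTATTTAacttcacccg
CISH, 3′UTR bases 493 to 501: attatacactATTTATTTAtttattctcc
CISH, 3′UTR bases 497 to 505: tacactatttATTTATTTAttctccttgg
The CISH matches overlap each other. Among 8131 mRNAs past the TPM thresholds with an annotated 3′UTR, 7.05% held at least 1 nonamer, and the counted transcripts of the other 8 feedback inhibitors held none.

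The promoter stretches printed next belong to CISH and DUSP1, which had the highest PRO-seq levels of the 10 genes. They are RefSeq sequences of GRCh38.p14, minus strand, from base -250 to base -101 relative to the annotated start. Capitals mark matches to TTCNNNGAA, the letters of a STAT site, in CISH, and to TGACGTCA, the full cyclic AMP response element, in DUSP1.
CISH, chr3:50611875-50612024: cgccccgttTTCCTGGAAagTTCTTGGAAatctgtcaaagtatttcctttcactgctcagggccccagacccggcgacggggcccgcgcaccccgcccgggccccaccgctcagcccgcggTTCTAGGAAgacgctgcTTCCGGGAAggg
DUSP1, chr5:172771296-172771445: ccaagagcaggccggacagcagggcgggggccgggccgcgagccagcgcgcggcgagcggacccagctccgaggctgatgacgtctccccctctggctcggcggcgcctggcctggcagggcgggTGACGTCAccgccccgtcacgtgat
CISH held 4 matches to TTCNNNGAA in its window of 250 bases before to 50 bases after the start, beginning at -241, -230, -129 and -112. At least 1 match was present in 7.66% of the 35116 windows of this table, and at least 4 in 7 windows (0.0199%). The DUSP1 match to TGACGTCA began at -125, and 1.85% of windows held that motif. The ETS letters CCGGAAGT, present in 4.14% of windows, were in none of the members' windows. All 3 motifs were searched on both strands, and matches of different motifs did not overlap in the members. The table gave windows for 7 of the 10 genes, and DUSP4, DUSP5 and SOCS2 were not among them. A match describes these letters only and says nothing about binding in K562 cells.

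Depth was moderate. Counts on transcripts ranged from 5732780 to 9002746 in RNA-seq and were 6993816 and 7245632 in PRO-seq. RNA-seq libraries 1 and 3, and 2 and 4, were closer to each other than other pairs (chi-square per degree of freedom 1.12 in both, against 1.74 to 2.11 for other RNA-seq pairs and 1.61 between the PRO-seq libraries), yet differed by more than counting noise and were kept as separate libraries. The labelled cell line had its defining transcripts: 12 erythroid and progenitor markers summed to between 12197 and 13081 RNA-seq TPM per library, whereas 6 markers of other cell types summed to between 2.29 and 2.53 TPM. In bulk RNA, fewer cells with a transcript and less transcript per cell cannot be told apart.

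The feedback inhibitors that could be measured had less RNA for their nascent transcription than the median mRNA. Of the 10 genes, 8 passed the thresholds of the study (an RNA-seq level above 1 TPM and a PRO-seq level above 10 TPM), and all of these 8 had a relative half-life below that of the median mRNA by edgeR's quasi-likelihood test (adjusted p under 0.05). The background is high, since 44.9% of the 8733 mRNAs tested were called below the median and 45.4% above it. The median of the 8 genes was -2.86 on the log2 scale, beside 0 for all tested mRNAs. Taken singly, the genes ranged from SPRY4, at percentile 0.939 of the tested mRNAs, to DUSP5 and SPRED1, at percentiles 33.6 and 38.3. When the test was whether relative half-life differed by more than 2-fold, 6 of the 8 were called below the median, against 23.2% of mRNAs.

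The shortfall was widest for SPRY4, DUSP1, CISH, SPRY2 and SPRED2, with relative half-lives 19.4-fold, 17.1-fold, 8.76-fold, 7.87-fold and 6.72-fold below the median mRNA. SOCS2 was 2.93-fold below. DUSP5 and SPRED1 were 1.59-fold and 1.39-fold below and lay near the middle of all mRNAs. DUSP4 and DUSP6 were too weakly transcribed in these cells for the same fit. Pairing each of the 4 RNA-seq libraries with each of the 2 PRO-seq libraries gave 8 ratios per gene, and all 8 ratios were below the median mRNA for each of the 8 genes past the thresholds.

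**Figure D1:**
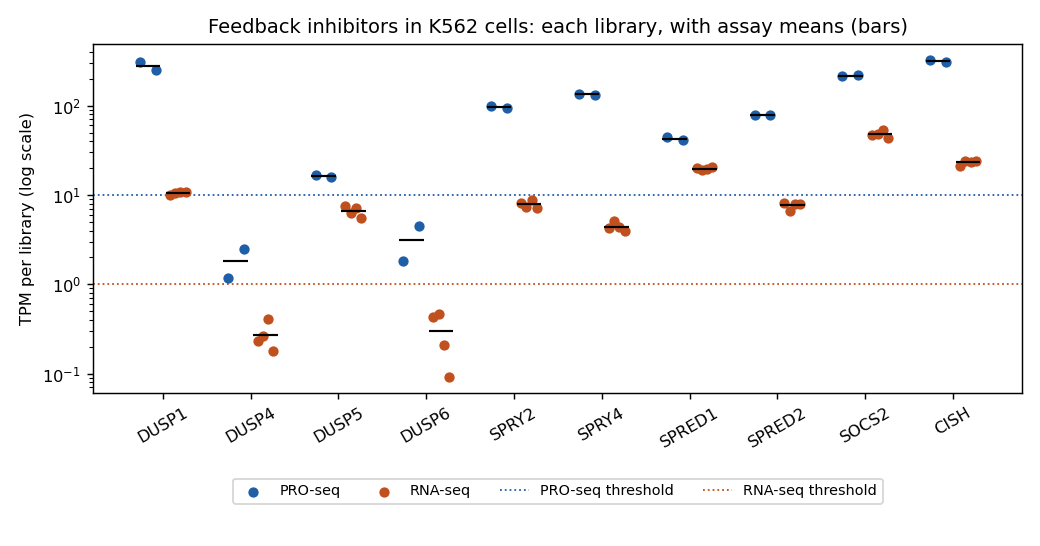
TPM of the 10 feedback inhibitors in each library on a log axis (blue, 2 PRO-seq libraries; orange, 4 RNA-seq libraries; black bars, assay means; dotted lines, the PRO-seq threshold of 10 TPM and the RNA-seq threshold of 1 TPM). The assays did not overlap for any gene, and DUSP4 and DUSP6 lay under both thresholds.

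Among the MAP kinase phosphatases, DUSP1, which removes phosphate from p38, JNK and ERK, was the most strongly transcribed. It lies on the minus strand of chromosome 5 (172195099 to 172198198 in GRCh37) with 4 exons. Its PRO-seq levels were 308 and 253 TPM in libraries 1 and 2, which placed it above 98.2% of the 14965 mRNAs with at least 1 summed count in each assay. Its RNA-seq levels in libraries 1 to 4 were 9.96, 10.5, 10.8 and 10.8 TPM, at percentile 51.9 of the same mRNAs. Among these 14965 mRNAs, DUSP1 was thus among the most transcribed and in the middle of the RNA levels. Its RNA-seq level was below 31.2 TPM, the median of the tested mRNAs. Its log2 relative half-life was -4.10 (SE 0.138, adjusted p = 1.3e-22), lower than that of all but 1.19% of tested mRNAs. The estimate rests on 287 RNA-seq and 307 PRO-seq counts. Its whole span is overlapped on the other strand by the lncRNA ENSG00000253736, which had 25 PRO-seq counts and no RNA-seq count. Whether the counting used strand is not known here.

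DUSP5, a nuclear phosphatase specific for ERK, differed from DUSP1 in its transcription more than in its RNA. It lies on chromosome 10 (112257665 to 112271291 in GRCh37, plus strand). Its PRO-seq levels were 16.8 and 15.9 TPM, and its RNA-seq levels were 7.47, 6.30, 7.11 and 5.52 TPM. Both levels were at percentile 46.1 of mRNAs. Its log2 relative half-life was -0.67 (SE 0.182, adjusted p = 0.0012). This call did not hold against a 2-fold difference (adjusted p = 1). It was also lost when all TUs with at least 1 count were fitted, which moved the median mRNA by 0.63 on the log2 scale and gave DUSP5 a value of -0.04 (adjusted p = 0.86).

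DUSP6, the cytoplasmic ERK phosphatase, and DUSP4, a nuclear one, were barely detected in either assay. DUSP6 had 7 PRO-seq and 16 RNA-seq counts in all. Its levels were 1.81 and 4.45 TPM in PRO-seq and 0.425, 0.470, 0.211 and 0.0920 TPM in RNA-seq. DUSP4 had 16 PRO-seq and 20 RNA-seq counts. Its levels were 1.16 and 2.51 TPM in PRO-seq and 0.232, 0.263, 0.414 and 0.180 TPM in RNA-seq. In both genes the PRO-seq libraries differed from each other by more than 2-fold and the RNA-seq libraries overlapped between the genes. Their values come from a wider fit, which took every TU counted at least once in each assay and in which 33.4% of 14965 mRNAs were called below the median and 42% above it. The median mRNA of that fit lies 0.63 from that of the main fit on the log2 scale. Its values therefore do not compare directly with those given for the other 8 genes. The log2 relative half-life was -1.97 for DUSP6 (SE 0.835, adjusted p = 0.027) and -1.50 for DUSP4 (SE 0.583, adjusted p = 0.016). Without PRO-seq library 2 the values were -1.35 (adjusted p = 0.42) and -0.99 (adjusted p = 0.36), and without RNA-seq library 4 the call for DUSP6 was lost as well (-1.72, adjusted p = 0.065). DUSP6 also shares 873 exon bases with the lncRNA ENSG00000274021 on the other strand, which had no count in either assay.

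Both Sprouty genes were high in PRO-seq. In RNA-seq they lay near the middle of the 14965 mRNAs with at least 1 summed count in each assay. Both were below the median RNA-seq level of the tested mRNAs, 31.2 TPM. SPRY4 lies on chromosome 5 (141689992 to 141704566 in GRCh37, minus strand) and had 952 PRO-seq and 299 RNA-seq counts. Its PRO-seq levels were 137 and 132 TPM, above 93.6% of mRNAs. Its RNA-seq levels were 4.22, 5.08, 4.34 and 3.99 TPM, at percentile 42.2 and the lowest of the 8 genes past the thresholds. Its log2 relative half-life of -4.28 (SE 0.0946, adjusted p = 2.1e-27) was the lowest of the 8, and 0.939% of tested mRNAs were below it. SPRY2, with a single intron on chromosome 13 (80910111 to 80915261 in GRCh37, minus strand), had PRO-seq levels of 98.8 and 93.2 TPM and RNA-seq levels of 8.21, 7.35, 8.71 and 7.15 TPM. These placed it at percentile 88.3 in PRO-seq and 48.1 in RNA-seq. Its log2 relative half-life was -2.98 (SE 0.153, adjusted p = 8.5e-18). SPRY2 had more RNA than SPRY4 at lower nascent transcription, with no overlap of the libraries in either assay.

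The SPRED genes differed from each other. SPRED2, on chromosome 2 (65537985 to 65659733 in GRCh37, minus strand), had 79.4 and 79.3 TPM in PRO-seq and 8.08, 6.63, 7.88 and 7.97 TPM in RNA-seq. SPRED1, on chromosome 15 (38545037 to 38649450 in GRCh37, plus strand), had 44.2 and 41.3 TPM in PRO-seq and 20.1, 19.2, 19.4 and 20.4 TPM in RNA-seq. SPRED2 was thus higher in PRO-seq and lower in RNA-seq, and the ranges of the libraries did not overlap in either assay. The log2 relative half-life was -2.75 for SPRED2 (SE 0.0670, adjusted p = 2.5e-26) and -0.48 for SPRED1 (SE 0.0571, adjusted p = 4.7e-09). The ratios of single libraries ran from -2.96 to -2.64 for SPRED2 and from -0.59 to -0.38 for SPRED1. These are the longest of the 10 TUs and carry the most PRO-seq counts, with 5004 PRO-seq counts on SPRED2 and 2309 on SPRED1, so their estimates are the most precise. The direction of SPRED1 depends on the set of mRNAs that fixes the median. It was not called against a 2-fold difference (adjusted p = 1), and in the fit over all TUs with at least 1 count it was above the median mRNA, at 0.15 (adjusted p = 0.018). An lncRNA within SPRED2 on the same strand, ENSG00000232693, had 9 RNA-seq counts and no PRO-seq count.

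CISH, the cytokine-inducible SH2-containing member of the SOCS family, had the highest nascent level of the 10 genes. It lies on chromosome 3 (50643920 to 50649205 in GRCh37, minus strand) with 3 exons. Its PRO-seq levels were 326 and 305 TPM, above 98.5% of mRNAs. Its RNA-seq levels were 21.0, 24.3, 23.3 and 24.1 TPM, at percentile 64.9. Its log2 relative half-life was -3.13 (SE 0.0904, adjusted p = 2.3e-24), and the 8 single-library ratios ran from -3.32 to -3.01.

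SOCS2, which limits growth hormone receptor signaling, had the highest RNA-seq level of the 10 genes, on the transcript that was counted. Its PRO-seq levels were 215 and 220 TPM, above 97.3% of mRNAs, and its RNA-seq levels were 47.4, 47.8, 53.4 and 43.1 TPM, at percentile 77.7. Its log2 relative half-life was -1.55 (SE 0.0930, adjusted p = 4.6e-16). The counted transcript of SOCS2, ENST00000549510 on chromosome 12 (93968834 to 93977263 in GRCh37, plus strand), has 581 exon bases and shares 116 of the 2386 exon bases of the transcript that GENCODE marks as canonical (4.86%). Its RNA-seq level and relative half-life therefore describe that short transcript. The counted transcripts of the other 9 genes were the canonical ones or, in SPRY4, shared 99.6% of its exon bases.

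**Figure D2:**
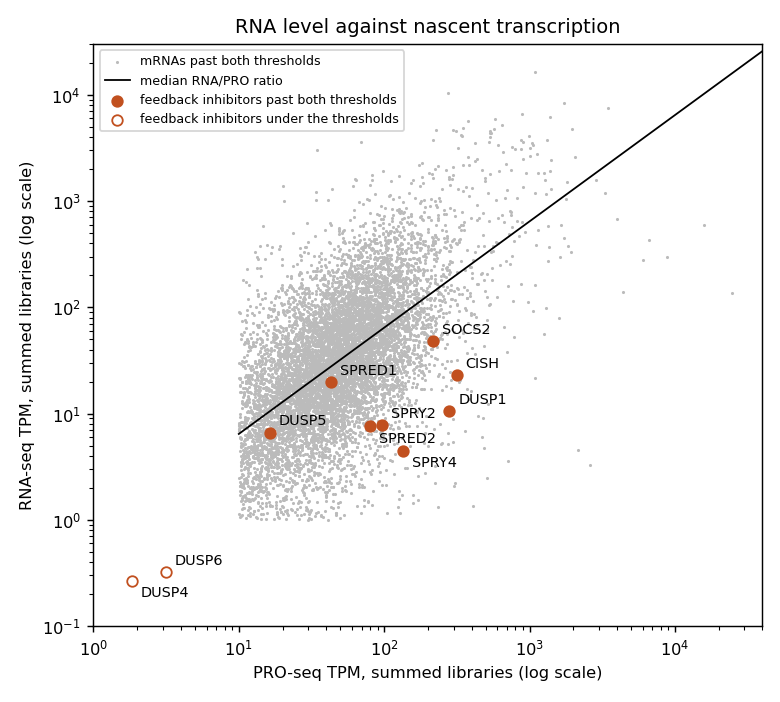
RNA-seq TPM against PRO-seq TPM on log axes for 8733 mRNAs past the thresholds (grey) and the 10 feedback inhibitors (orange; open circles, under the thresholds), with the median ratio of mRNAs as a line. All 8 filled circles lie under the line, with SPRY4 and DUSP1 farthest from it and SPRED1 and DUSP5 nearest.

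The order of the genes differed between the assays. In PRO-seq, CISH (315 TPM over both libraries) and DUSP1 (280 TPM) came first, with overlapping libraries, followed by SOCS2 (218 TPM), SPRY4 (134 TPM), SPRY2 (96.0 TPM), SPRED2 (79.4 TPM), SPRED1 (42.8 TPM) and DUSP5 (16.4 TPM), each apart from its neighbours. In RNA-seq, SOCS2 (47.7 TPM over all libraries), CISH (23.1 TPM), SPRED1 (19.7 TPM) and DUSP1 (10.5 TPM) were apart from each other and from the rest. SPRY2 (7.82 TPM), SPRED2 (7.58 TPM) and DUSP5 (6.62 TPM) were not separated from their neighbours in this order, and SPRY4 (4.45 TPM) was lower than all of these. DUSP6 and DUSP4 came last in both assays and overlapped. In log2 relative half-life, the single-library ratios of SPRED1 and DUSP5 overlapped, as did those of SPRED2 with SPRY2, SPRY2 with CISH, and DUSP1 with SPRY4. SOCS2, with its RNA read on the short counted transcript, stood apart from all others. For comparison, the median tested mRNA had a PRO-seq level of 47.5 TPM and an RNA-seq level of 31.2 TPM, so 6 of the 8 genes past the thresholds lay above it in nascent level and 7 below it in RNA.

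The members share few introns and a low density of splice junctions, which the choice of genes did not use. Their counted transcripts have between 1 and 6 introns and between 0.405 and 1.72 splice junctions per kb of mature RNA, against a median of 3.08 for the tested mRNAs, which have a median of 9 exons and 3064 exon bases. Exon length was above that median in DUSP4, DUSP6, SPRY4, SPRED1 and SPRED2 and below it in the other 5 genes. The TU length varied from 3100 bases in DUSP1 to 121749 in SPRED2, around a median of 29515 for tested mRNAs. The low values were not limited to a single length class. Among 928 mRNAs with TUs under 6 kb, DUSP1, CISH and SPRY2 were at percentiles 4.31, 9.38 and 10 of relative half-life. Among 2372 mRNAs of 6 to 20 kb, SPRY4 was at percentile 1.35, SOCS2 at 21.3 and DUSP5 at 37.7. Among 1293 mRNAs of 100 kb or more, SPRED2 was at percentile 1.86 and SPRED1 at 34.3. Removing 500 in place of 1000 bases from each TU for PRO-seq moved the ratio of DUSP1, the shortest TU, from -4.10 to -3.84.

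The AU-rich sequences were unevenly spread over the 10 mRNAs. The nonamer sites printed above belong to DUSP1 and CISH, with log2 relative half-lives of -4.10 and -3.13. SPRY4, the lowest of all at -4.28, held no nonamer and had 8 copies of the pentamer ATTTA in a 3′UTR of 3782 bases. SPRED1, the highest, held 24 pentamers in 5585 bases (4.30 per kb) and no nonamer, while DUSP5 held neither in 1107 bases. SOCS2 was read on its short counted transcript, with 1 pentamer in a 3′UTR of 441 bases. DUSP1 had 6.01 pentamers per kb, CISH 2.68, SPRY2 2.56, SOCS2 2.27, SPRY4 2.12, SPRED2 1.89, DUSP4 1.51 and DUSP6 0.495, beside a median of 1.60 per kb over the 8131 mRNAs with a 3′UTR, of which 71.3% had at least 1. Across those mRNAs the median log2 relative half-life was -0.48 for the 573 with a nonamer and 0.03 for the 7558 without one. These sets were not matched for 3′UTR length, and a link of the nonamer to the ratio was not tested.

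Of 15 further DUSP, SPRY, SPRED and SOCS genes, 8 passed the thresholds, with a list median of -1.06. Of these, 7 were called below the median mRNA and none above it, beside 44.9% and 45.4% of all tested mRNAs. The remaining gene, SOCS6, was not called (0.14, adjusted p = 0.15). The lowest were SOCS1, an inhibitor of JAK kinases (-2.84, SE 0.417), and DUSP10, a phosphatase of p38 and JNK (-2.04, SE 0.0944). The PRO-seq libraries of SOCS1 were far apart, at 29.6 and 106 TPM on 28 counts, and its value was -3.47 to -1.65 when single libraries were left out, with the value nearest to 0 when PRO-seq library 2 was absent. The least low of those called were SOCS3 (-0.44, SE 0.201, adjusted p = 0.043) and SOCS4 (-0.32, SE 0.0985, adjusted p = 0.0038). The call for SOCS3 was not stable. It was lost without PRO-seq library 2 (-0.17, adjusted p = 0.60), RNA-seq library 2 (-0.42, adjusted p = 0.056) or RNA-seq library 3 (-0.41, adjusted p = 0.058). It was also lost with DESeq2 (adjusted p = 0.073), with 500 bases removed (-0.20, adjusted p = 0.32), with the replicate block (adjusted p = 0.07), with the closest RNA-seq libraries summed (adjusted p = 0.051), with at least 10 summed counts (adjusted p = 0.13) and against a 2-fold difference (adjusted p = 1). In the fit over all TUs with at least 1 count, 7 of 14 were below and 3 above, and both SOCS3 (0.19) and SOCS4 (0.31) had changed sign. Of the 14965 mRNAs in that fit, 33.4% were called below the median and 42% above it. SOCS5 had 522 RNA-seq counts and is listed at 0 in PRO-seq, so it has no ratio. The thresholds also left out DUSP9, with 10.7 TPM in RNA-seq and 0.983 TPM in PRO-seq, and SPRED3, with 0.246 and 17.8 TPM. The split of the 8 tested paralogs therefore depends on the thresholds as well.

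Genes of the pathways that these proteins restrain lay on both sides of the median mRNA. Of 17 genes of the ERK cascade tested, 8 were called above and 8 below it, with a median of 0.09, beside 45.4% above and 44.9% below over all tested mRNAs. BRAF, the RAF kinase, and KSR1, a scaffold for RAF and MEK, were lowest (-1.45 and -1.30), and the phosphatase PTPN11 and the GTPase HRAS were highest (2.10 and 1.82). The PRO-seq libraries of HRAS were at 31.0 and 12.2 TPM, and its value was 2.64 without the first and 1.27 without the other. Of 11 JAK-STAT receptors, kinases and STAT proteins tested, 6 were above and 3 below, with a median of 0.22. The receptors EPOR (-1.38) and IL6ST (-1.05) were lowest, and the kinase JAK1 was among the highest (0.62).

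Inhibitors of these pathways that are not known mainly as induced genes were spread widely. Of 14 tested, 6 were above and 8 below the median mRNA, beside 45.4% above and 44.9% below over all tested mRNAs. The list median was -0.34. PEBP1, an inhibitor of the ERK cascade, was highest at 4.10 (SE 0.0692), with 535 to 552 TPM in the RNA-seq libraries and 48.0 and 49.8 TPM in PRO-seq. The tyrosine phosphatase PTPN2 followed at 1.65, and the STAT inhibitors PIAS3 (-2.60) and PIAS1 (-2.03) were lowest. Counted and canonical transcripts were compared only for the feedback inhibitors. The values of PTPN2 and of the other list genes therefore describe their counted transcripts alone. Differences between the lists were not tested, and the lists were chosen with earlier results of these data known.

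Among induced targets of ERK and STAT5 that are not inhibitors, most of those tested were below the median mRNA. Of 11 tested, 9 were called below the median mRNA and 1 above it, beside 44.9% below and 45.4% above over all tested mRNAs. The list median was -1.18. FOSL1, an AP-1 transcription factor, and PHLDA1, a pleckstrin homology-like domain protein, were lowest at -4.76 (SE 0.0922) and -4.26 (SE 0.165), beside SPRY4 and DUSP1. BCL2L1, the anti-apoptotic protein, was the least low of those called (-0.45), and the kinase PIM3 was the one above (0.61, adjusted p = 0.00065), a call lost without PRO-seq library 1 (0.42, adjusted p = 0.056). In the fit over all TUs with at least 1 count, the splits above and below were 10 and 5 of 17 for the ERK cascade, 9 and 3 of 13 for JAK-STAT, 7 and 5 of 14 for the constitutive inhibitors, 5 and 7 of 14 for the target genes, and 1 and 8 of 10 for the feedback inhibitors. The 8 feedback inhibitors below in that fit include DUSP4 and DUSP6 and leave out DUSP5 (-0.04) and SPRED1 (0.15), so they are not the 8 of the main fit. Of the 14965 mRNAs in that fit, 42% were called above the median and 33.4% below it.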

How the data were processed

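The authors deposited raw counts per transcript for 4 RNA-seq and 2 PRO-seq libraries of K562 cells. Per the labels and methods, they used Cutadapt for trimming, HISAT2 for alignment to GRCh38 and HTSeq for counting, on exons for RNA-seq and on the TU without 500 bases at each end for PRO-seq. No source used here gives the tool versions or the strand setting. Here, transcript identifiers were matched to GENCODE v44 lifted to GRCh37, and 37339 of 42371 (88.12%) matched. Rows naming no TU held 66.5% to 68.6% of RNA-seq and 86.5% to 88.6% of PRO-seq records and were left out. TPM used exon length for RNA-seq and span minus 1000 bases for PRO-seq, without a pseudocount. Relative half-life was tested with edgeR 4.0.16 in R 4.3.3 (quasi-likelihood, TMM factors, length offsets, two-sided), RNA-seq against PRO-seq, centred on the median mRNA, over 9929 TUs with more than 10 TPM in PRO-seq and more than 1 TPM in RNA-seq, and Benjamini-Hochberg adjustment covered all TUs. SEs follow from the F statistic. DUSP4 and DUSP6 were taken from a wider fit, over 20644 TUs counted at least once in each assay. The procedure was tested on simulated data and found, among 9929 TUs, 92% of the 200 whose simulated log2 change was 1, with 6 false calls. In the simulation the other TUs did not differ between the assays, whereas 44.9% of real mRNAs were called below the median and 45.4% above. The false calls therefore give no error rate for the real data. DESeq2 1.42.0 was an alternative, and summing the closest RNA-seq libraries was added after seeing the data. The members and lists were chosen with earlier results of these data known. All members were named, and from each pathway list the 2 highest and 2 lowest called genes, except that SOCS5, SOCS6, DUSP9 and SPRED3 were named after their values were seen. ARAF, CBLB, CD14, CDH5, RPS6KA3 and SOS1 were not analysed here, and 1 gene that the naming rule selects is not reported here.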

Additional observations from a re-analysis of the deposited data

Results flagged for a closer look

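The RNA-seq level of SPRED2 had 1 library far from the other 3. The libraries were at 8.08, 6.63, 7.88 and 7.97 TPM, and the gap of library 2 to its nearest neighbour was 0.861 of the whole range, above Dixon's critical value for 4 samples. This was the only one of the 10 members so marked in RNA-seq, and chance marks about 1 in 20 groups. The log2 relative half-life of SPRED2 stayed between -2.79 and -2.67 when single libraries were left out.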

How the results depend on the processing

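All 8 feedback inhibitors past the thresholds were called below the median mRNA with library totals, 500 bases removed, DESeq2, the summed RNA-seq pairs, and each library left out (8 to 8 below, 0 to 0 above). Stricter thresholds left 7, since DUSP5 was not tested. The numbers of RNA-seq and PRO-seq libraries did not pair them (correlation of deviations -0.0067), and the replicate block gave 8 members below, 3913 TUs above and 4865 below, with 6 in place of 7 paralogs below, as with DESeq2, 500 bases removed and the summed pairs, and with DUSP4 (-1.58, adjusted p = 0.094) and DUSP6 (-1.49, adjusted p = 0.27) no longer called. Over all alternatives, the adjusted p (edgeR or DESeq2) ran from 0.00056 to 1 for DUSP5, 8e-10 to 1 for SPRED1, 0.0011 to 0.36 for DUSP4, 0.023 to 0.42 for DUSP6, 0.02 to 1 for SOCS3, 0.0014 to 1 for SOCS4 and 5.8e-16 to 1 for PIM3. The calls of IL6ST (adjusted p = 0.097, edgeR), JAK1 and BCL2L1 were also lost against a 2-fold difference. In all, 412 values of named genes kept their direction and call, 28 kept direction alone and 4 reversed.

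The 4 reversals came with at least 1 summed count, where the median mRNA itself moved: SPRED1 to 0.15, SOCS3 to 0.19, SOCS4 to 0.31 and BCL2L1 to 0.18. That fit had 1 member, 3 paralogs and 5 target genes above, 5 ERK cascade genes and 5 constitutive inhibitors below, and 6548 and 7714 TUs above and below, of 20644 tested, beside 4008 and 4963 in the main analysis. Against a 2-fold difference, the counts above and below were 2138 and 2901 for TUs, 4 and 3 for the ERK cascade, 0 and 1 for JAK-STAT, 2 and 3 for constitutive inhibitors, with 4 paralogs below and 0 target genes above. At least 10 summed counts gave 1 paralog and 2 target genes above, and 500 bases removed gave 2 target genes above. The cause was not tested.

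When single libraries were left out, counts above and below ran from 3877 to 3999 and 4795 to 4954 for TUs, 0 to 0 and 6 to 7 for paralogs, 8 to 8 and 7 to 8 for the ERK cascade, 5 to 6 and 3 to 4 for JAK-STAT, 6 to 6 and 6 to 8 for constitutive inhibitors, and 0 to 1 and 9 to 9 for target genes.

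PRO-seq measures polymerase occupancy, so elongation rate enters each ratio and was not tested. With 2 PRO-seq libraries and 1 flask, culture variation is not covered. DUSP4 and DUSP6 are limited by depth.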

Other observations

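Several expressed genes of the lists had no or almost no PRO-seq count. They lay under the PRO-seq threshold, and no ratio is given for them here. PPP2CA, the catalytic subunit of protein phosphatase 2A, had 6756 RNA-seq counts, CCND2, a D-type cyclin, had 5014 and HBE1, the embryonic globin, had 38755, and all 3 are listed at 0 in PRO-seq. DUSP9, a phosphatase of ERK, had 333 RNA-seq counts (9.03 to 12.0 TPM) and 4 PRO-seq counts (0.496 and 1.46 TPM). These genes were chosen after their values were seen.

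PIM1, a kinase gene induced by STAT5, had the highest nascent level of the target genes, 1099 TPM over both libraries. Its RNA-seq level was 389 TPM, and its log2 relative half-life was -0.86 (SE 0.0503, edgeR). MYC had a PRO-seq level of 327 TPM and an RNA-seq level of 92.7 TPM, with a log2 relative half-life of -1.18 (SE 0.0623). Both were named after their values were seen.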
